A study of Rattus norvegicus with 15 samples.

Results

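The 9 genes described here encode 8 chemokines of mucosal and other tissue cells (Cxcl14, Cxcl16, Cxcl17, Cx3cl1, Ccl17, Ccl20, Ccl22 and Ccl24) and 1 chemokine receptor (Cx3cr1). They were chosen by name from the 22250 genes of the deposited table, each symbol stood on 1 line, and all 9 passed the filter on low values (1 FPKM or more in at least 5 of 15 libraries), which kept 13457 genes. Levels are in FPKM, fragments scaled to gene length and to the mapped fragments of the library, so they can be compared between genes. RNA was sequenced from whole rat lung in 3 groups of 5 libraries, all labelled as wild type. Normal rats served as controls. Rats of the ALI group (acute lung injury) received lipopolysaccharide (LPS, from the wall of Gram-negative bacteria) into the trachea. The SJY group received LPS by the same route and Sang Ju Yin, a Chinese herbal formula, into the stomach. No group given a sham instillation or the vehicle of the formula is named, and strain, age, sex, dose and time after LPS are not given in the sources used here. The labels do not say that each library is 1 animal, so the p-values here reflect how far these samples differ among themselves, which may be technical.

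Chemokines are small secreted proteins that bind receptors on leukocytes and steer their migration. Families are named after the spacing of their first cysteines (CC, CXC and CX3C). The genes here differ from the acute neutrophil-attracting chemokines in that most are made by epithelium, macrophages or dendritic cells for resident and patrolling cells. Cxcl17 and Cxcl14 are made by mucosal epithelium and other tissue cells in the absence of infection. Cxcl16 and Cx3cl1 (fractalkine) are made as membrane-anchored proteins on a mucin-like stalk, and are released by the proteases Adam10 and Adam17. Cxcl16 binds Cxcr6 on T cells and Cx3cl1 binds Cx3cr1 on monocytes and some lymphocytes. Ccl20 is induced in epithelium by IL-1, TNF and IL-17 and attracts Ccr6-bearing dendritic cells and lymphocytes. Ccl17 and Ccl22, the ligands of Ccr4, are products of dendritic cells and macrophages, and Ccl24 (eotaxin-2) attracts eosinophils through Ccr3.

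The 250 bases before the transcription start are shown for the 4 members that differed from control in at least 1 comparison, since a difference in transcript level may start there. They come from RefSeq on the build GRCr8, which is not the build of the deposited values. All 9 members had an entry. The windows are chr9:91836909-91837158, plus strand for Ccl20; chr10:55669951-55670200, minus strand for Cxcl16; chr17:8322900-8323149, plus strand for Cxcl14; and chr12:26737173-26737422, plus strand for Ccl24. Capitals mark a match to the NF-kB consensus, TGANTCA (the AP-1 site), TTCNNNGAA (a STAT site), TATAAA or CACGTG (an E-box), each searched on both strands.
Ccl20: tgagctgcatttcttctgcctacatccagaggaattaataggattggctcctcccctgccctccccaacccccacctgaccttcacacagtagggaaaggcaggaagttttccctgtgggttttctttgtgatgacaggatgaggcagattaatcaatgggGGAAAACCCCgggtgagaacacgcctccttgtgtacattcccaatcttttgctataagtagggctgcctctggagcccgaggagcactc
Cxcl16: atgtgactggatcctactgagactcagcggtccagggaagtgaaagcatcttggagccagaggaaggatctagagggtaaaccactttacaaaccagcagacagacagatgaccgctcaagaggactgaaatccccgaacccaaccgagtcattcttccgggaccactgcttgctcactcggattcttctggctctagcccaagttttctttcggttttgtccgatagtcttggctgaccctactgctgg
Cxcl14: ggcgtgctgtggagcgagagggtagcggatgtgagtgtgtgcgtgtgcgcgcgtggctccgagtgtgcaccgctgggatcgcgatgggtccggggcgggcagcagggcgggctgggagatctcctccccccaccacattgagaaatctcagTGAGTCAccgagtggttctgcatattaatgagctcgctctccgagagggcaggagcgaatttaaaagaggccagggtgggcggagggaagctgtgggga
Ccl24: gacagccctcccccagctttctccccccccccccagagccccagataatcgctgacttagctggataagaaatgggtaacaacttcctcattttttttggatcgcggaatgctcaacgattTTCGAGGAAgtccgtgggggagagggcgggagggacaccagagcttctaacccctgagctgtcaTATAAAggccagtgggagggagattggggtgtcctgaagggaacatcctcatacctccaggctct
Ccl20 held the NF-kB match on the minus strand, from 89 to 80 bases before the start, as did 3.54% of all 33469 windows of this length. Cxcl14 held TGANTCA from 99 to 93 bases before the start (6.34% of windows), and Ccl24 held TTCNNNGAA from 129 to 121 (7.67%) and TATAAA from 65 to 60 bases before it (12.9%). The Cxcl16 window held none of the 5 motifs, and CACGTG (5.59%) was in none of the 9 windows. Of the other members, Cx3cl1 held TATAAA and Ccl17 held TTCNNNGAA. These are letter matches and no binding was measured. Ccl17, Cx3cl1 and Ccl22 followed each other on chromosome 19 with no other protein-coding gene between them in RefSeq, while the other 6 members lay on 6 other chromosomes.

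Defining lung transcripts were abundant in every library (surfactant protein gene Sftpc at 2480 to 15300 FPKM and club cell gene Scgb1a1 at 5260 to 16700 FPKM). Library depth is unknown in absolute terms, but steps of whole fragments among low values put the relative depth at 0.944 to 1.10 times that of control 4. ALI 1 stood apart: 37.7% of its summed FPKM came from 13 mitochondrial genes (5.19% to 17.1% in the other 14 libraries), and its alveolar type II markers summed to 5980 FPKM, the lowest of all, where the ALI median was 16400 FPKM. Where leaving out ALI 1 alone changed the call of a member, the result without it is given.

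The 9 genes spanned more than 2 orders of magnitude in normal lung. Cxcl17 led at 220 ± 23.0 FPKM, followed by Cxcl16 at 62.1 ± 11.2 and Cxcl14 at 30.1 ± 9.79 FPKM (SD, n = 5 each), and the ranges of these 3 genes did not overlap with each other or with the rest. Below them came Cx3cl1 (11.4 ± 2.93 FPKM), Ccl17 (10.6 ± 4.86), Cx3cr1 (6.67 ± 3.73), Ccl22 (3.66 ± 1.95), Ccl20 (2.16 ± 1.18) and Ccl24 (0.995 ± 0.538), each overlapping its neighbour in this order. In ALI the order after Cxcl17 and Cxcl16 was Ccl20, Cx3cl1, Cxcl14, Cx3cr1, Ccl17, Ccl22 and Ccl24, all overlapping their neighbours. In SJY it was Cx3cl1, Cxcl14, Ccl20, Ccl17, Ccl24, Cx3cr1 and Ccl22. There, only the step from Cx3cr1 to Ccl22 was free of overlap.

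**Figure D1:**
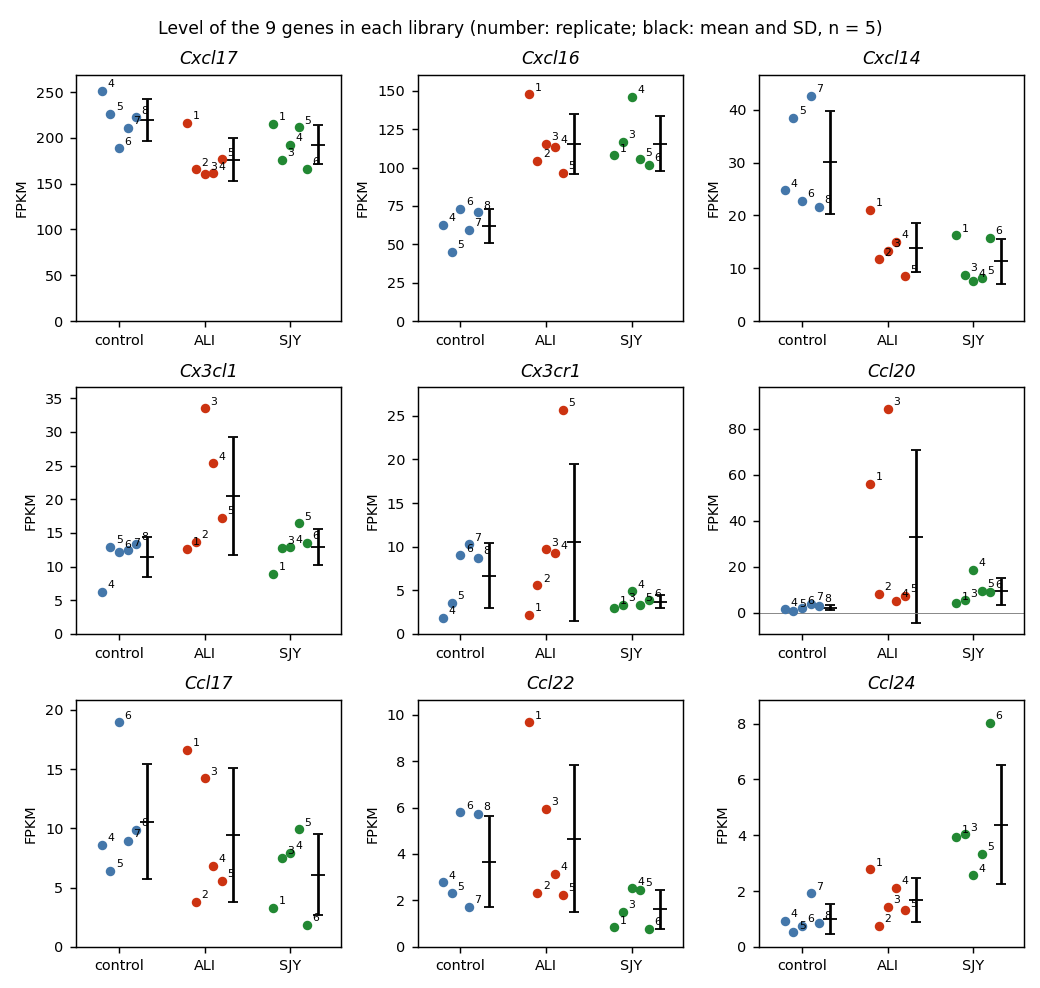
FPKM of the 9 genes (vertical axes, linear, one scale per gene) in each of the 15 libraries, by group, with the replicate number beside each point and the mean and SD of 5 libraries in black. Cxcl16 and Cxcl14 separate control from both LPS-treated groups, the high Ccl20 values belong to ALI 1 and ALI 3, and Ccl24 is higher in all SJY than in all control libraries.

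The make-up of the 8 ligand transcripts held less Cxcl17 and more Cxcl16 in the LPS-treated groups. Cxcl17 made up 64.4 ± 4.77% of their summed FPKM in control libraries, against 48.0 ± 7.46% in ALI and 54.4 ± 4.23% in SJY libraries. The share of Cxcl16 was 18.2 ± 3.42%, 31.1 ± 2.99% and 32.6 ± 3.57%, and that of Cxcl14 8.85 ± 2.95%, 3.68 ± 0.791% and 3.26 ± 1.38% (SD, n = 5 each). Ccl20 held 0.632 ± 0.343% in control and up to 20.5% in 1 ALI library. Shares add up to a whole, so a rise of 1 ligand lowers the share of the others, and no test was made on them.

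**Figure D2:**
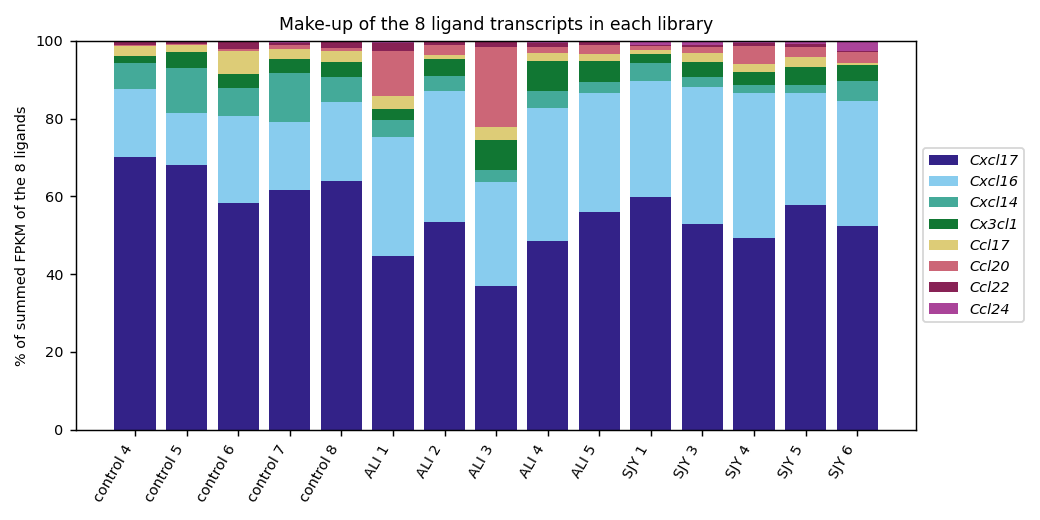
Stacked bars give the percent of the summed FPKM of the 8 ligands held by each ligand, 1 bar per library. The share of Cxcl17 runs from 58.2% to 70.1% in control and from 37.1% to 56.0% in ALI, and that of Cxcl16 from 13.5% to 22.6% in control and from 26.7% to 34.1% in ALI.

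ALI was set against control to see what LPS instillation changed. Cxcl16 and Ccl20 rose and Cxcl14 fell. The other 6 members did not pass the test. The fit was limma on log2(FPKM + 1) over all genes kept, with a call where the Benjamini-Hochberg adjusted p was below 0.05. It called 2 members higher and 1 lower of 9, where 8.02% of all genes were called higher and 9.56% lower (17.6% in either direction). The median log2 change was 0.41 over the 9 members and −0.12 over all genes. In 3 members the 5 ALI libraries did not overlap with the 5 control libraries, 2 higher (6.17% of all genes) and 1 lower (6.73%), against 12.9% of all genes in either direction. At an unadjusted p under 0.05 were 5 members, against 35% of all genes.

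SJY was set against control to see how lungs given LPS and the formula differed from normal lung. Cxcl16 and Ccl24 rose and Cxcl14 fell, so 2 of 9 members were called higher (14.6% of all genes) and 1 lower (18.1%; 32.6% in either direction). The median log2 change was −0.19 over the members and −0.11 over all genes. In 4 members the groups did not overlap, 3 higher (11.8% of all genes) and 1 lower (15.9%), against 27.7% in either direction. At an unadjusted p under 0.05 were 5 members, against 43.6% of all genes. This comparison shares its 5 control libraries with that of ALI against control, so the agreement of calls between them is not independent.

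SJY was set against ALI to see what the formula changed in the LPS-treated lung. No member was called by limma, as was true of all but 1 of the 13457 genes (0.00743%). At an unadjusted p under 0.05 were 3 members, Ccl24 (higher in SJY), Ccl22 and Cx3cl1 (both lower), where 11.8% of all genes reached that level. The median log2 change was −0.54 over the 9 members and 0.03 over all genes, and in no member were the groups free of overlap (3.23% of all genes, 2.24% higher and 0.988% lower).

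**Figure D3:**
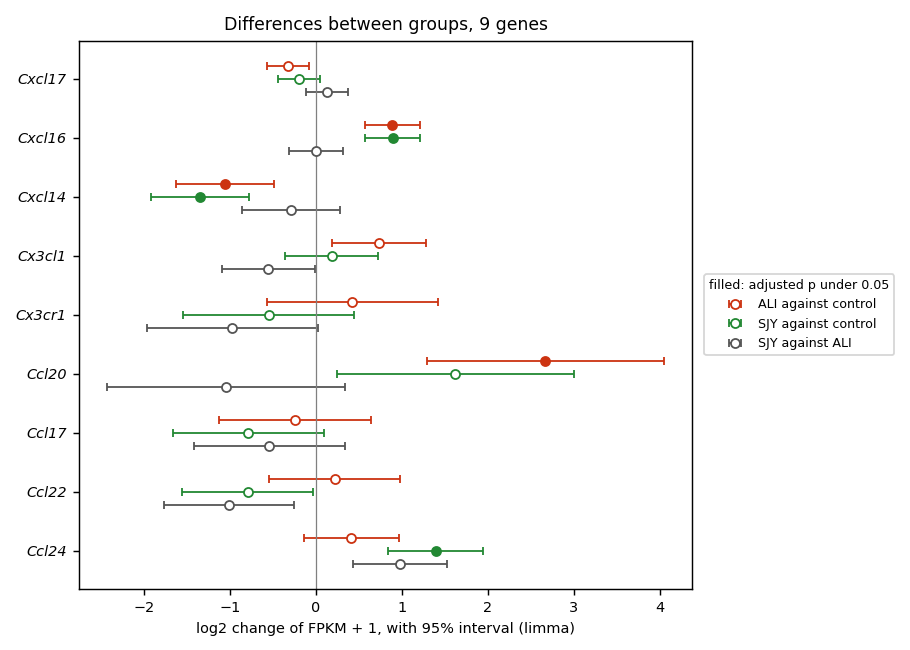
Differences between groups in log2(FPKM + 1) (horizontal axis) with 95% intervals from limma for each gene (vertical axis), filled where the adjusted p was under 0.05. In the contrast of SJY with ALI (grey) no point is filled. The interval of Cxcl16 there runs from −0.31 to 0.32 and that of Ccl20 from −2.43 to 0.33.

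Cxcl16, the membrane-anchored ligand of Cxcr6, rose in both LPS-treated groups. It stood at 62.5, 44.9, 73.0, 59.3 and 70.8 FPKM in control 4 to 8, at 148, 105, 115, 113 and 96.5 FPKM in ALI 1 to 5, and at 108, 117, 146, 105 and 102 FPKM in SJY 1, 3, 4, 5 and 6. Every LPS-treated library lay above every control library, and the ranges of ALI and SJY overlapped. The rise was 1.86-fold between group means in either comparison. On the log2 scale it was 0.89 ± 0.15 (SE) in ALI (limma adjusted p = 0.00107) and 0.89 ± 0.15 in SJY (adjusted p = 0.000582). The log2 difference between SJY and ALI was 0.0031, with a 95% interval from −0.31 to 0.32, which leaves room for differences of about that size.

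Cxcl14, an epithelial and stromal chemokine that is silenced in many inflamed or transformed epithelia, fell in both LPS-treated groups. It was listed at 24.8, 38.5, 22.8, 42.7 and 21.6 FPKM in control 4 to 8, at 21.1, 11.7, 13.3, 14.97 and 8.46 FPKM in ALI 1 to 5, and at 16.3, 8.80, 7.61, 8.13 and 15.7 FPKM in the SJY libraries. The highest ALI library, ALI 1, came close to the lowest control library, control 8, and no LPS-treated library reached the control range. The group mean was 2.16 times higher in control than in ALI (log2 change −1.06 ± 0.27 SE, limma adjusted p = 0.0140) and 2.66 times higher than in SJY (−1.35 ± 0.27, adjusted p = 0.00182). Scaled by the median of ratios, which moved the median of all genes from −0.12 to 0.001, the ALI difference was −0.92 and missed the threshold by limma (adjusted p = 0.0522, with 0.00281 to 0.139 over all alternatives). The fall in SJY kept its call in all 26 alternatives. SJY and ALI differed by −0.29 (95% interval −0.86 to 0.28).

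Cxcl17, a chemokine of mucosal epithelium and the most abundant member, was not called in any comparison. Its values were 251, 226, 188, 211 and 222 FPKM in control 4 to 8, and 216, 166, 161, 162 and 176 FPKM in ALI 1 to 5. SJY libraries lay at 215, 176, 193, 212 and 166 FPKM. All ALI libraries but ALI 1 lay below all control libraries, and SJY spanned the gap. The log2 change was −0.32 ± 0.12 (SE) in ALI (limma adjusted p = 0.0645) and −0.19 ± 0.12 in SJY (adjusted p = 0.215). Without ALI 1 it was −0.40 in ALI and was called (adjusted p = 0.0167, with 0.0122 to 0.517 over all alternatives). Scaling to equal summed FPKM without mitochondrial genes also called it in ALI (adjusted p = 0.0461) and in SJY (adjusted p = 0.0374, with 0.0374 to 0.790 over all alternatives). Of 6 airway secretory and basal cell markers tested, only the club cell gene Scgb1a1 was called in ALI, where it fell from 13340 to 6833 FPKM (adjusted p = 0.00273). The summed level of the list, almost all of it Scgb1a1, was 10900 to 17100 FPKM in control, 5380 to 9230 in ALI and 7860 to 13500 in SJY. The other markers did not all share that direction. Their log2 differences in ALI were 2.32 for Bpifa1, 2.04 for Bpifb1, 1.29 for Muc5b, 0.71 for Scgb3a1 and −0.95 for Scgb3a2. The list's median was 1.00. For Bpifa1, Bpifb1, Muc5b and Scgb3a1 the highest ALI values (253, 176, 60.6 and 305 FPKM) lay far above the ALI medians. These medians were 2.39, 16.1, 1.69 and 5.4 FPKM, against control medians of 0.271, 4.66, 0.791 and 7.84 FPKM. The part of these markers in the Cxcl17 values was not tested.

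Ccl20, the epithelial ligand of Ccr6, had the highest fold of the 9 genes, carried by a pair of ALI libraries. Control 4 to 8 held 1.49, 0.701, 1.99, 3.71 and 2.91 FPKM. ALI 1 and ALI 3 held 56.1 and 88.6 FPKM, and ALI 2, 4 and 5 held 8.05, 5.26 and 7.35 FPKM. SJY libraries stood at 4.01, 5.29, 18.7, 9.36 and 8.95 FPKM. All 10 LPS-treated libraries exceeded all 5 control libraries, and 3 of 5 ALI libraries lay inside the SJY range. The group mean rose 15.3-fold in ALI, from 2.16 ± 1.18 to 33.1 ± 37.7 FPKM (SD, n = 5 each; log2 change 2.67 ± 0.65 SE, limma adjusted p = 0.0119). With ALI 1 and ALI 3 both left out, the log2 change was 1.39.

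In SJY the mean of Ccl20 was 4.29 times that of control (log2 change 1.62 ± 0.65 SE). The call depended on the settings and on the libraries fitted, and was made in 6 of 26 alternatives. The limma adjusted p was 0.0668 with all 15 libraries. It was 0.00306 when only SJY and control were fitted, 0.0302 without ALI 3, 0.0434 with a pseudocount of 0.1 and 0.013 with array weights (0.00152 to 0.303 over all alternatives). Between SJY and ALI the log2 difference was −1.05, with a 95% interval from −2.43 to 0.33, and it was 0.23 with ALI 1 and ALI 3 left out. The ratio of Ccl20 to Ccr6 within a library, with 1 added to each FPKM, was higher in all 5 ALI and all 5 SJY libraries than in the 5 control libraries, by 2.63 and 2.46 log2 units (exact permutation p = 0.00794 each, the smallest that 5 against 5 libraries can give, and 0.0397 adjusted over 15 ratio tests). With 0.1 added in place of 1, the differences were 3.12 and 3.31, so the size depends on this choice. Neutrophil markers summed to 15900 FPKM in ALI 1, the highest value of that list. B cell, dendritic cell, and T and NK cell markers had their highest sums in ALI 3 (282, 269 and 209 FPKM). The B cell and the T and NK cell sums were lowest in ALI 1 (17.2 and 68.5 FPKM). Airway secretory and basal markers were highest among ALI libraries in ALI 3 (9230 FPKM), below the control range of 10900 to 17100 FPKM. The part of these lists in the high Ccl20 of ALI 1 and ALI 3 was not tested.

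Cx3cl1 and Cx3cr1, the membrane-anchored CX3C ligand and its receptor, were not called in any comparison. Cx3cl1 was at 6.26 FPKM in control 4 and at 12.9, 12.2, 12.5 and 13.3 FPKM in control 5 to 8. The ALI libraries held 12.6, 13.6, 33.5, 25.3 and 17.2 FPKM, and the SJY libraries 8.95, 12.8, 12.95, 16.4 and 13.6 FPKM. ALI 3, ALI 4 and ALI 5 exceeded every other library, while ALI 1 and ALI 2 lay among the control and SJY libraries. The log2 change was 0.74 ± 0.26 (SE) in ALI against control (limma adjusted p = 0.0575), 0.18 ± 0.26 in SJY against control (0.614) and −0.55 ± 0.26 in SJY against ALI (0.412). The ALI difference was called without ALI 1 (0.88, adjusted p = 0.0247), without ALI 2 (adjusted p = 0.0463) and when scaled by the median of ratios (0.87, adjusted p = 0.0121), within a span of 0.0121 to 0.127 over all alternatives.

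Cx3cr1 marks patrolling monocytes and varied widely between libraries of control and of ALI. Control 4 to 8 held 1.83, 3.56, 8.996, 10.3 and 8.70 FPKM, and ALI 1 to 5 held 2.19, 5.58, 9.70, 9.31 and 25.7 FPKM. The 5 SJY libraries were close together at 2.96, 3.31, 4.87, 3.33 and 3.86 FPKM, and 4 of 5 ALI libraries exceeded all of them. The log2 difference between SJY and ALI was −0.97 (95% interval −1.97 to 0.02, limma adjusted p = 0.434). Summed markers of non-classical monocytes ran from 367 to 572 FPKM in control, 162 to 461 in ALI and 195 to 338 in SJY, but most of that sum was Ace (means of 338.6, 213.4 and 147.2 FPKM), which endothelium also expresses. The median log2 change over the 7 markers was 0.035 in ALI and −0.115 in SJY (−0.12 and −0.11 over all genes). Markers went both ways in ALI. Itgal, Spn, Cd300e and Treml4 had log2 differences of 0.20, 0.04, 0.33 and 0.44. Beside the lower Ace, the mean of Nr4a1 went from 82.48 to 35.04 FPKM and that of Eno3 from 11.11 to 6.656 FPKM. In ALI limma called 0 of the 7 higher and 2 lower, against 8.02% and 9.56% of all genes. Among ALI libraries the non-classical monocyte sum was highest in ALI 5 and lowest in ALI 1, as Cx3cr1 was. The tissue macrophage sum had the same extremes there (1040 and 233 FPKM). In SJY it was highest in SJY 4 and lowest in SJY 1 (707 and 469 FPKM), again as Cx3cr1 was. In control its extremes, control 6 and control 5 (334 and 255 FPKM), were not those of Cx3cr1. The part of either marker list in the Cx3cr1 values was not tested. In whole-lung RNA, fewer cells of a type and less RNA per cell cannot be told apart. The log2 ratio of Cx3cl1 to Cx3cr1 was 0.838 ± 0.607 in control, against 1.15 ± 1.02 for ALI and 1.57 ± 0.301 for SJY (SD, n = 5 each), with no difference past adjustment (exact permutation, smallest adjusted p = 0.132).

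Ccl17 and Ccl22, the Ccr4 ligands of dendritic cells and macrophages, varied together from library to library. Ccl17 was at 8.61, 6.42, 19.0, 8.94 and 9.86 FPKM in control 4 to 8, at 16.6, 3.79, 14.2, 6.83 and 5.57 FPKM in ALI 1 to 5, and at 3.27, 7.52, 7.93, 9.93 and 1.84 FPKM in SJY. Ccl22 was at 2.78, 2.30, 5.80, 1.72 and 5.72 FPKM in control, at 9.67, 2.32, 5.94, 3.15 and 2.23 FPKM in ALI, and at 0.838, 1.51, 2.52, 2.45 and 0.765 FPKM in SJY. ALI 1 and ALI 3 were the highest ALI libraries for both genes, as they were for Ccl20. Over the 15 libraries Pearson's r of their log2(FPKM + 1) was 0.842, and 0.854 after the group means were taken off. This is a description of 15 points that share library and scaling.

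Neither of these genes was called. Ccl22 had a log2 change of 0.22 ± 0.36 (SE) in ALI against control (limma adjusted p = 0.686), −0.79 ± 0.36 in SJY against control (0.0997) and −1.01 ± 0.36 in SJY against ALI (0.308). The mean was 1.62 ± 0.843 FPKM in SJY and 4.66 ± 3.18 FPKM in ALI (SD, n = 5 each). SJY against control was called without ALI 1 (adjusted p = 0.0438), when only these groups were fitted (0.0436), with array weights (0.0438) and with ALI 1 and ALI 3 left out (0.0302), out of a span from 0.0302 to 0.248. Ccl17 differed by −0.24 ± 0.41, −0.79 ± 0.41 and −0.54 ± 0.41 in the same comparisons (adjusted p = 0.696, 0.157 and 0.653). Dendritic cell markers summed to 112 to 167 FPKM in control, 119 to 269 in ALI and 102 to 175 in SJY, with the highest sum in ALI 3. Their part in the Ccl22 values was not tested.

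**Figure D4:**
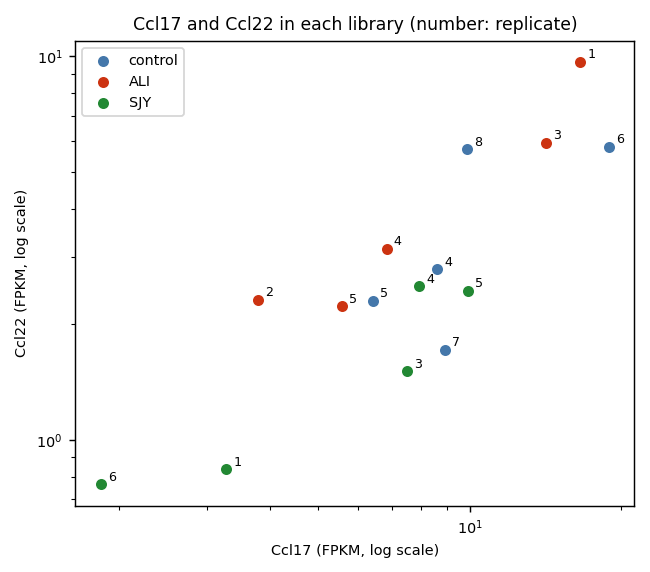
Ccl22 against Ccl17 in FPKM, both axes on a log scale, 1 point per library with its replicate number. All 5 SJY points lie at or below 2.52 FPKM of Ccl22, as do control 5, control 7, ALI 2 and ALI 5.

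Ccl24, eotaxin-2, had its highest levels in SJY. Control 4 to 8 held 0.926, 0.517, 0.757, 1.92 and 0.860 FPKM, and ALI 1 to 5 held 2.78, 0.752, 1.44, 2.11 and 1.30 FPKM. SJY libraries stood at 3.94, 4.03, 2.56, 3.34 and 8.04 FPKM. All SJY libraries exceeded all control libraries and 4 of 5 exceeded all ALI libraries, the exception being SJY 4, which lay below ALI 1. All 5 SJY libraries reached 1 FPKM, which alone meets the filter, beside 4 ALI libraries and 1 control library. The group mean in SJY was 4.404 times that of control (log2 change 1.39 ± 0.26 SE, limma adjusted p = 0.00119), and this call held in all 25 alternatives that could be fitted.

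Against ALI, the mean of Ccl24 in SJY was 2.61 times as high (log2 change 0.98 ± 0.26 SE, 95% interval 0.43 to 1.53). The limma adjusted p was 0.195 with all libraries, 0.0438 without ALI 1 and 0.0375 with array weights (0.0375 to 0.440 over all alternatives). The difference was upward in all of them. ALI against control differed by 0.41 ± 0.26 (adjusted p = 0.263). Transcripts of eosinophils themselves stayed low in all groups, with Epx at 0 to 0.844 FPKM and Prg2 at 0 to 3.10 FPKM. Classical monocyte markers summed to 38.3 to 47.9 FPKM in control, 68.9 to 180 in ALI and 199 to 371 in SJY, highest in SJY 6, which also had the highest Ccl24, and their part in the Ccl24 values was not tested.

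No receptor of these ligands was called higher in any comparison. Of 8 receptor and scavenger genes tested in a list of 10, limma called 0 higher and 2 lower in ALI, and 0 higher and 3 lower in SJY, both against control. The median log2 change of the list was −0.51 and −0.90, against −0.12 and −0.11 over all genes. Ccr4, the receptor of Ccl17 and Ccl22 on T cells, fell from 3.22 ± 1.59 FPKM in control to 1.12 ± 0.874 in ALI (log2 change −1.03 ± 0.31 SE, adjusted p = 0.0324) and to 0.911 ± 0.543 FPKM in SJY (−1.13 ± 0.31, adjusted p = 0.0127). Ackr4, a scavenger of CC chemokines, fell from 12.03 ± 1.52 FPKM to 3.70 ± 1.54 in ALI and 4.12 ± 0.437 FPKM in SJY libraries (SD, n = 5 each; log2 change −1.54 and −1.34, adjusted p = 0.000174 and 0.000294). Ccr8 fell in SJY by 0.97 (adjusted p = 0.0234). Of all genes, 9.56% were called lower in ALI and 18.1% in SJY. The count of 2 in ALI was 1 to 3, and that of 3 in SJY 1 to 6, over all alternatives.

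The cognate receptors of Cxcl16 and Ccl20 were not called against control. Cxcr6, carried by resident T cells, stood at 10.6 ± 4.30 FPKM in control, with 7.66 ± 4.98 FPKM for ALI and 4.19 ± 2.604 FPKM for SJY (limma adjusted p = 0.347 in ALI and 0.0679 in SJY). Ccr6 was at 3.11 ± 1.52, 3.69 ± 3.34 and 1.26 ± 0.627 FPKM (SD, n = 5 each). The ratio of Cxcl16 to Cxcr6 within a library was higher in all 5 SJY than in all 5 control libraries, by 2.09 log2 units (exact permutation p = 0.00794, 0.0397 adjusted over 15 ratio tests). In ALI it was higher by 1.54 (exact permutation p = 0.0317, adjusted 0.0952). Cxcr4, which Cxcl14 is reported to bind, had 56.3 ± 9.77, 49.0 ± 24.7 and 45.2 ± 9.20 FPKM, and Gpr35, a debated receptor of Cxcl17, had 2.03 ± 0.765, 2.91 ± 0.757 and 2.71 ± 1.03 FPKM in the groups in that order, and neither was called. Ccr3, the eotaxin receptor, stayed at 0.121 to 0.953 FPKM in all libraries and was not tested.

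Transcripts of the genes that govern release of Cxcl16 and Cx3cl1 from the membrane, which include an inhibitor, differed in direction. Of 6, limma called 3 higher and 2 lower in ALI and the same numbers in SJY, against control. Of all genes, 8.02% were called higher and 9.56% lower in ALI, and 14.6% and 18.1% in SJY. Adam17, the inducible sheddase, rose from 34.4 ± 1.07 to 46.2 ± 4.71 FPKM in ALI and 45.8 ± 2.14 FPKM in SJY libraries (SD, n = 5 each; log2 change 0.41 and 0.40, adjusted p = 0.00534 and 0.00326). Rhbdf2, which brings Adam17 to the cell surface, rose by 0.89 and 1.13 (adjusted p = 0.00055 and 3.21e-05), and the protease gene Ctss, whose product also cleaves Cx3cl1, by 0.89 and 0.97 (adjusted p = 0.00871 and 0.00274). Timp3, an inhibitor of Adam17, fell from 774.5 ± 211.5 FPKM to 233.8 ± 132.6 and 219.4 ± 40.3 FPKM (log2 change −1.96 and −1.77, adjusted p = 0.0055 and 0.00533). Adam10, the constitutive sheddase, fell in SJY by 0.63 (adjusted p = 0.0145) and differed by −0.17 in ALI (adjusted p = 0.505). Rhbdf1 fell in ALI by 0.59 with a limma adjusted p of 0.0499, at the edge of the threshold. The count of 2 lower in ALI was 1 in 21 of 26 alternatives and 0 in 1. That of 3 higher in ALI was 3 in 25 alternatives and 0 in 1. No transcript level here measures shedding.

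**Figure D5:**
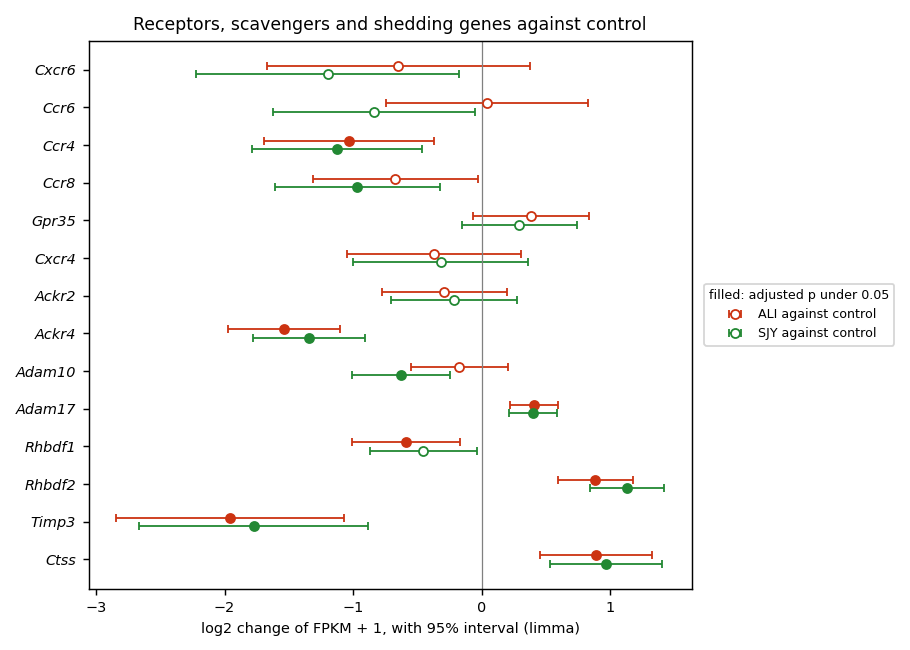
Log2 change of FPKM + 1 against control with 95% limma intervals (horizontal axis) for the receptor, scavenger and shedding genes tested (vertical axis), in ALI (red) and SJY (green), filled where the adjusted p was under 0.05. Ackr4, Ccr4 and Timp3 lie left of 0 and Rhbdf2, Ctss and Adam17 right of 0 in both groups.

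Upstream signals for Ccl20 were measured in part. Of 12 IL-17, IL-1 and TNF genes, 6 passed the filter, and limma called 2 of these higher in ALI and 3 in SJY, with none lower. Of all genes, 8.02% and 14.6% were called higher. The count in ALI was 1 in 9 of 26 alternatives. Il1b rose from 18.9 ± 6.36 FPKM to 93.0 ± 24.3 in ALI and 123.7 ± 21.6 in SJY libraries (SD, n = 5 each; log2 change 2.27 and 2.69, adjusted p = 8.54e-06 and 6.22e-07). Il23a, a subunit of the cytokine that sustains IL-17 producers, rose by 0.56 and 0.65 (adjusted p = 0.0354 and 0.00993). Il17ra, the shared IL-17 receptor chain, rose in SJY from 68.6 ± 6.06 to 108.6 ± 11.4 FPKM (log2 change 0.65, adjusted p = 0.000304). The genes that did not pass were not tested. Il17a, Il17f and Tnf were listed at 0.441 FPKM or less in every library. Il17c, an epithelial IL-17 family cytokine, had a mean of 0.317 FPKM in control, 1.49 FPKM in ALI (highest 4.01) and 0.705 FPKM in SJY, and Il22 reached 1.54 FPKM in 1 ALI library.

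Upstream signals for Ccl17, Ccl22 and Ccl24, the type 2 cytokines and the genes of alternative macrophage activation, could be tested for 10 of 15 genes. The cytokine genes Il4, Il5, Il13 and Il25 did not pass the filter, with at most 1.19 FPKM in any library, and were not tested. Against control, limma called 0 of 10 higher and 1 lower in ALI, where 9.56% of all genes were called lower, so this share is the background. In SJY it called 0 higher and 4 lower, where 18.1% of all genes were called lower. Gata3, the type 2 lymphocyte factor, fell from 5.59 ± 1.46 FPKM to 2.63 ± 1.26 in ALI and 2.27 ± 0.807 FPKM in SJY libraries (SD, n = 5 each; log2 change −0.90 and −1.02, adjusted p = 0.0219 and 0.00659). In SJY, Il13ra1 fell by 0.76 (adjusted p = 0.0427) and Stat6, which carries the IL-4 and IL-13 signal, by 0.58 (adjusted p = 0.0402). Il1rl1, the IL-33 receptor gene, fell in SJY by 0.52 (adjusted p = 0.0289). The count of 1 in ALI was 0 to 1 over all alternatives. That of 4 in SJY was 1 without control 7, control 8, SJY 1 or SJY 4, and 2 without control 5 or control 6. It was 0 with a block on replicate numbers and 6 with array weights. Irf4 was at 3.20 ± 1.009, 5.65 ± 3.93 and 1.79 ± 0.724 FPKM in the 3 groups in that order and was not called.

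Some marker lists moved with the groups and others did not, and their part in the member changes was not tested. In ALI against control, where 8.02% of all genes were called higher and 9.56% lower, limma called 7 of 7 neutrophil, 5 of 5 classical monocyte and 5 of 7 tissue macrophage markers higher, and 7 of 7 alveolar type I markers lower. Tissue macrophages are among the cells named above as sources or carriers of these genes. Of the others, it called 3 of 7 alveolar macrophage markers higher and 1 lower, and 2 of 7 non-classical monocyte markers lower. It called 3 of 6 fibroblast and 1 of 10 dendritic cell markers higher, and 1 of 6 airway secretory and basal markers lower. For T and NK cells 0 of 8 markers were called, and for B cells 0 of 5. Tissue macrophage markers summed to 255 to 334 FPKM in control, 233 to 1040 in ALI and 469 to 707 in SJY, with the lowest of all in ALI 1. Cxcl16 was highest in ALI 1, where 37.7% of the summed FPKM was mitochondrial and the neutrophil markers had their highest sum (15900 FPKM). The part of either cell type in the Cxcl16 values was not tested.

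For each member, the 3 genes of the table with the most similar profile over the 15 libraries, by Pearson's r of log2(FPKM + 1), are given as a description. All share libraries and scaling with it, and most of the likeness can come from group differences. For Cxcl16 they were Actr3 (r = 0.965), Ctsb (0.954) and Ms4a6a (0.952), and for Cxcl14 Smim10l1 (0.907), Cry1 (0.860) and Bcar3 (0.837). For Cxcl17 they were Ssc4d (0.862), RGD1560394 (0.809) and Ccnd1 (0.805). Ccl20 was closest to Tmc5 (0.941), Rhbdl2 (0.936) and Prss30 (0.925), and these kept r of 0.885, 0.911 and 0.838 after the group means were taken off. Cx3cl1 was closest to Zwilch (0.889), Syngr2 (0.866) and Slc30a7 (0.853), and Cx3cr1 to Cdon (0.875), Iqgap2 (0.872) and Cysltr1 (0.869). Ccl17 was closest to Ccl22 (0.842), Chtopl1 (0.798) and Hsph1 (0.755). Ccl22 was closest to Socs1 (0.867), Gja1 (0.856) and Ccl17 (0.842). Ccl24 was closest to Gsr (0.909), Il17ra (0.908) and Fcnb (0.876), and with the group means taken off these were 0.779, 0.664 and 0.575.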

How the data were processed

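Whole-lung RNA of 15 rat libraries was grouped by the labels, 5 per group. TRIzol was used for RNA and the NEBNext Ultra kit for libraries, per the labels' protocols. Tools listed in the submitters' processing notes are HISAT2, StringTie and cutadapt, with the build Rnor_6.0. Strand setting and scaling between libraries are not given in the sources used here. The authors deposited 1 FPKM column per library, as its header says.

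Genes at 1 FPKM or more in at least 5 libraries (13457) were fitted as log2(FPKM + 1) with limma 3.58.1 in R 4.3.3 (all 3 groups, trend and robust settings, two-sided, Benjamini-Hochberg over all genes). A fold change on this scale understates the change of low genes. Within-library ratios (5 pairs, 1 added to each FPKM) were compared by exact two-sided permutation of libraries. The fit was tested on simulated data.

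The members, lists and tests were chosen with earlier results of these data known. Named were all members, 6 receptors, up to 3 called genes per direction and list with the largest change, and the 3 genes most like each member. Il1rl1, untested cytokines and single markers were named after their values were seen. Ackr1 and Il4ra of the lists were not analysed here. Alternatives were other scaling, pseudocount, filters, limma settings, samples in the fit, array weights, a block on replicate numbers, and libraries left out. How the authors' counting divided reads between close paralogs, such as CC chemokines, is not known.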

Additional observations from a re-analysis of the deposited data

Results flagged for a closer look

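Within each group of 5 libraries, the highest and the lowest FPKM of each member were checked for standing apart, as a gap to the next library over 0.71 of the group's range. Of 27 groups (9 genes in 3 groups), 4 held such a value, and chance flags about 1 in 20. Cxcl17 in ALI 1 was 216 FPKM, with 161 to 176 FPKM in the other 4 ALI libraries. Cx3cl1 in control 4 was 6.26 FPKM, with 12.2 to 13.3 FPKM in the other control libraries. Ccl17 in control 6 was 19.0 FPKM, with 6.42 to 9.86 FPKM in the others. Ccl24 in SJY 6 was 8.04 FPKM, with 2.56 to 4.03 FPKM in the other SJY libraries. The high Ccl20 of ALI 1 and ALI 3 was not picked up by this check, which looks at 1 library at a time.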

How the results depend on the processing

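Each comparison was recomputed under 26 alternatives, 24 planned and 2 chosen after seeing the data (ALI 1 and SJY 1, or ALI 1 and ALI 3, left out). The calls of Cxcl14, Cxcl16 and Ccl24 in SJY against control held in all of them that could be fitted (Ccl24 and Ccl22 are not tested with a mean of at least 5 FPKM). In ALI against control, Cxcl16 and Ccl20 lost their calls only with the replicate block. The median shift of all genes was −0.12 in ALI and −0.11 in SJY, and 0.001 and −0.004 with median-of-ratios scaling.

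Genes called in ALI against control numbered 2366, 1332 with only these groups, 3959 with array weights, 313 with the replicate block, 1574 without ALI 1 and ALI 3, and 1538 to 2890 with single libraries left out. In SJY against control, 4390 became 7654 with array weights, 1142 with the block and 3329 to 5953 with single libraries left out. In SJY against ALI, 1 became 0 with median-of-ratios scaling, a pseudocount of 0.1, no filter, plain limma settings or only these groups, 478 with array weights, 58 without ALI 1 and SJY 1, 155 without ALI 1 and ALI 3, and 0 to 181 with single libraries left out (181 without ALI 1). Members called higher or lower in ALI against control (2 and 1) were 0 and 0 with the block, and higher ones 2 to 3 leaving out single libraries. Lower ones were 0 with median-of-ratios scaling and 2 with equal non-mitochondrial FPKM, array weights, ALI 1 and SJY 1 left out or ALI 1 and ALI 3 left out (1 to 2 leaving out single libraries). In SJY against control, members called higher were 1 with a mean of at least 5 FPKM, which removes Ccl24, and members called lower were 2 with equal non-mitochondrial FPKM, only these groups or ALI 1 and ALI 3 left out, 3 with array weights, and 1 to 2 with single libraries left out. In SJY against ALI 1 member, Ccl24, was called higher with array weights (0 to 1 leaving out single libraries).

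Direction turned for members that were not called. Cxcl16 in SJY against ALI was −0.024 with median-of-ratios scaling, −0.1024 with equal non-mitochondrial FPKM and −0.0406 with the block (−0.0835 to 0.0949 leaving out single libraries). Ccl22 in ALI against control was −0.1623 with array weights, −0.0524 without ALI 1 and SJY 1 and −0.2951 without ALI 1 and ALI 3 (−0.0524 to 0.379). Without ALI 1 and ALI 3, Ccl20 and Ccl17 in SJY against ALI were 0.2317 and 0.0117. In SJY against control, Cx3cr1 was 0.2353 with the block, and Cx3cl1 ran from −0.0009 to 0.2985 leaving out single libraries. The ratio of Ccl20 to Ccr6 in SJY against ALI was −0.17, 0.1916 with a pseudocount of 0.1 and −0.4773 to 0.4529 leaving out single libraries.

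Other ratios, leaving out single libraries, ran from −0.0035 to 0.6584 for Cx3cl1/Cx3cr1 in SJY against ALI, −0.6195 to −0.3247, 0.3628 to 0.632 and −0.1496 to 0.1709 for Ccl17/Ccl22 (ALI from control, SJY from ALI, SJY from control), 1.9587 to 2.2948 for Cxcl16/Cxcr6 and 1.1365 to 1.6171 for Ccl24/Ccr3 in SJY against control, and 2.0023 to 2.9325 and 2.2125 to 2.6669 for Ccl20/Ccr6 in ALI and in SJY against control. The calls of Cxcl16/Cxcr6 and Ccl20/Ccr6 were lost without control 4, control 5 or control 6, and that of Ccl20/Ccr6 in ALI also without control 8 (adjusted p up to 0.0595 and 0.0893), where fewer libraries were compared. Ratio calls were gained for Ccl17/Ccl22 in ALI against control without control 8 (adjusted p = 0.0397, with 0.0397 to 0.265 over its alternatives) and in SJY against ALI without SJY 6 (0.0298, with 0.0298 to 0.238). Ccl24/Ccr3 in SJY against control differed by 1.41 (exact permutation, adjusted p = 0.0595). It was called only without SJY 4 (0.0298, with 0.0298 to 0.0893), and was 2.09 with 0.1 added. Ccr3 stayed below 1 FPKM in all libraries, so with 1 added this ratio mostly follows Ccl24.

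Whether replicate numbers pair the samples was not settled. Correlations of same-numbered libraries' deviations ran from −0.389 to 0.302, and 3 of 9 correlated best with their own number. ALI and control share only the numbers 4 and 5, so this check is too small to exclude a pairing. With the replicate block, Cxcl14, Cxcl16 and Ccl20 in ALI against control changed by −1.09, 0.95 and 2.999 (limma adjusted p = 0.139, 0.0564 and 0.19), with fewer residual degrees of freedom. Absolute depth is unknown, which limits what can be said of Ccl24, Ccr3 and other genes near 1 FPKM.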
